A study of Homo sapiens with 6 samples.

Results

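Transcripts of 10 aldehyde dehydrogenase (ALDH) genes were followed in A549 cells, a human line long established from a lung adenocarcinoma. The genes were ALDH1A1, ALDH1A3, ALDH1B1, ALDH2, ALDH3A1, ALDH3A2, ALDH3B1, ALDH4A1, ALDH7A1 and ALDH9A1, chosen by name. The choice was made with earlier results of these data known. All 10 were found among the 58721 genes of the count table, and all 10 passed the filter on low counts that left 20713 tested genes. Polyadenylated RNA was sequenced from 6 libraries of A549 cells, of which 3 bear the label of wild-type KAT8 overexpression (WT) and 3 that of overexpression of KAT8 R98W, an amino acid substitution (R98W). KAT8, also called MOF, is a lysine acetyltransferase of histone H4. R98W is the altered form under study, in a series about the Tudor-knot domain of the protein. All 6 libraries are labelled as overexpressing a form of KAT8, which the KAT8 counts of 1 library go against (below). Both groups rest on the A549 line alone, and none of the 6 libraries is labelled as lacking overexpression. The comparison asks how transcript levels differ between libraries labelled with the substituted protein and those labelled with the wild-type protein. The labels do not say whether replicates were separate cultures, so p-values speak of the spread among these 6 libraries alone, and that spread may be technical.

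ALDH enzymes oxidise aldehydes to carboxylic acids with NAD or NADP as the acceptor of electrons. The family clears aldehydes that come from alcohol, lipid peroxidation, amino acids, amines and retinol. The cytosolic enzymes ALDH1A1 and ALDH1A3 make retinoic acid from retinal, ALDH2 and ALDH1B1 are mitochondrial enzymes that oxidise acetaldehyde, and the ALDH3 enzymes handle fatty and aromatic aldehydes. ALDH4A1, ALDH7A1 and ALDH9A1 act on semialdehydes and aminoaldehydes of proline, lysine and choline or polyamine metabolism. A549 cells are known for high ALDH1A1 and ALDH3A1.

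The libraries held 90007121 to 110152936 counts. Levels are given as CPM, counts relative to library totals that were scaled by the trimmed mean of M-values (TMM). Changes are given as the log2 ratio of R98W to WT, and a gene is called higher or lower where its edgeR adjusted p was under 0.05. The epithelial keratin gene KRT8 stood between 4200 and 4510 CPM, KRT18 between 2710 and 3230 CPM and KRT7 between 846 and 1000 CPM. Other epithelial markers were lower, with CDH1 at 138 to 166 CPM, KRT19 at 38 to 56.7 CPM and EPCAM at only 3.3 to 8.29 CPM. The alveolar surfactant gene SFTPC reached at most 0.105 CPM, the lung lineage factor NKX2-1 at most 0.132 CPM and NAPSA at most 1.02 CPM. Markers fixed for immune, endothelial and fibroblast cells summed to at most 8.75, 0.78 and 14.4 CPM in any library, and CD3E was at 0 in all 6. CD14 of the immune list stood at 6.01 to 8.62 CPM and COL1A1 of the fibroblast list at 10 to 14.2 CPM. The EPCAM range did not reach above either. KAT8 itself went against the label of 1 library. The library labelled WT replicate 1 held 12.2 CPM of KAT8, against 195 and 184 CPM in WT replicates 2 and 3 and 166, 196 and 236 CPM in R98W replicates 1 to 3. Calls of named genes, and call counts of the members and gene lists, are given beside each result where they change without that library. Below, "WT replicate 1" means the library with this label. In bulk RNA, fewer cells that express a gene and less RNA of it per cell cannot be told apart.

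Promoter windows of RefSeq (GRCh38.p14), each of 300 bases that reach from upstream of a start site to just past it, matched 8 of the 10 genes, with 11 windows in all. ALDH2 and ALDH3A1 had none. The windows of 3 genes are shown because they are the most abundant member and the called members with the smallest p in each direction. They lie at chr9:72953004-72953303 on the minus strand for ALDH1A1, within the gene as GENCODE draws it, at chr9:38392452-38392751 on the plus strand for ALDH1B1, and at chr5:126595170-126595469 on the minus strand for ALDH7A1. Capitals mark CCAAT, the box bound by NF-Y, or GGGCGG, the GC box bound by Sp1 family factors, on either strand.
ALDH1A1: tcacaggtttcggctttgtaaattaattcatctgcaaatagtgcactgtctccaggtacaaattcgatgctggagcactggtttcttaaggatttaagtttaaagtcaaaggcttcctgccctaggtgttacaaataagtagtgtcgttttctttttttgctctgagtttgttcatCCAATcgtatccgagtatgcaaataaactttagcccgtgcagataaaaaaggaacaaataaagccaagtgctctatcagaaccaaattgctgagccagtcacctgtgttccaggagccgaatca
ALDH1B1: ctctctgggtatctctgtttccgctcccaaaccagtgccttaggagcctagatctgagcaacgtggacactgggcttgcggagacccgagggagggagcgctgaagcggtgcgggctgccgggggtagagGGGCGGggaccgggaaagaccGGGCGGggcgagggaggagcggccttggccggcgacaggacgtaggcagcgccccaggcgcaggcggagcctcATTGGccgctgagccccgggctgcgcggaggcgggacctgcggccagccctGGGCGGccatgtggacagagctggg
ALDH7A1: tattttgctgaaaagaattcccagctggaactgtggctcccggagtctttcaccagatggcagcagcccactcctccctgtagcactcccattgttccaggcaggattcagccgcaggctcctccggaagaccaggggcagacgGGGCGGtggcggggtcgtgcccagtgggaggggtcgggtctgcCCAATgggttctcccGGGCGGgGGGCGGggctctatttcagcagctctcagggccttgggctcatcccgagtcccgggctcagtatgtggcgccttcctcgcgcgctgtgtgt

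The ALDH1A1 window, from the gene with the highest level, was the poorest in G and C of the 11, at 40.3%, against a median of 58.7% over the 35116 windows of the table. It held 1 CCAAT and 0 GGGCGG matches. The ALDH1B1 and ALDH7A1 windows held 71.3% and 64.3% G and C, with 1 CCAAT and 3 GGGCGG matches each. ALDH1B1 rose and ALDH7A1 fell in R98W, and a link between motifs and direction was not tested. CCAAT was found in 34.6% of all windows and GGGCGG in 45%. Of the other motifs searched on both strands, TATAAA (in 11.5% of windows), TGACNNNGC (13.3%) and TGAGNNNGC (18.3%), both forms of the antioxidant response element core bound by NRF2, and GCGTG (36.5%), the core bound by the aryl hydrocarbon receptor, had 0 matches in these 3 windows. In the remaining 8 windows, TGAGNNNGC was found only in the downstream window of ALDH3A2, 1 time, and GCGTG 2 times there and 2 times in that of ALDH1A3. Such matches describe letters in the window and are not binding sites.

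ALDH1A1 and ALDH3A1 made up most of the ALDH transcripts in every library. The 10 genes together took 1.64%, 1.65% and 1.68% of all counts in WT replicates 1 to 3 and 1.44%, 1.37% and 1.30% in R98W replicates 1 to 3. ALDH1A1 gave between 68.6% and 73.7% of the summed CPM of the 10 genes, and ALDH3A1 between 18.8% and 21.5%. The other 8 genes summed to 1093 to 1191 CPM in WT and to 1322 to 1429 CPM in R98W. The sum of the 10 was therefore lower in each R98W library than in each WT library, and the sum of the 8 less abundant genes was higher.

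Levels can be set side by side between genes only per length, here as CPM per kilobase (kb) of the union of annotated exons. In WT the order was ALDH1A1 at 4074 ± 31.7 CPM per kb (SD, n = 3), ALDH3A1 at 810 ± 23.1, ALDH3A2 at 65.0 ± 2.1, ALDH1B1 at 45.8 ± 5.8 and ALDH3B1 at 34.6 ± 3.9 CPM per kb. ALDH9A1 followed at 27.2 ± 1.8, ALDH2 at 14.5 ± 0.77, ALDH4A1 at 4.71 ± 0.52, ALDH7A1 at 4.23 ± 0.23 and ALDH1A3 at 1.57 ± 0.14 CPM per kb. ALDH1A1 was 5.03 times the level of ALDH3A1, which was 12.5 times that of ALDH3A2. The ranges of neighbours in this order did not overlap over the 3 WT libraries, except for ALDH4A1 and ALDH7A1. The order of the means was the same in R98W, where no neighbours overlapped. The place of ALDH7A1 depends on the length used. Its exons span 17970 bases in union but 4964 in its longest transcript. Per kb of longest transcript it stood at 15.3 CPM per kb in WT, next to ALDH2 at 14.7. The ratios above depend on length too, as ALDH1A1, ALDH3A1 and ALDH3A2 stood at 5508, 1480 and 107 by that measure. ALDH4A1 shares 1517 exonic bases on the same strand with AL080251.1 (0 to 1 counts a library), and ALDH2 680 with ENSG00000257767 (0 counts). How reads there were assigned is not known, so the levels per kb of both genes may be too low.

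**Figure D1:**
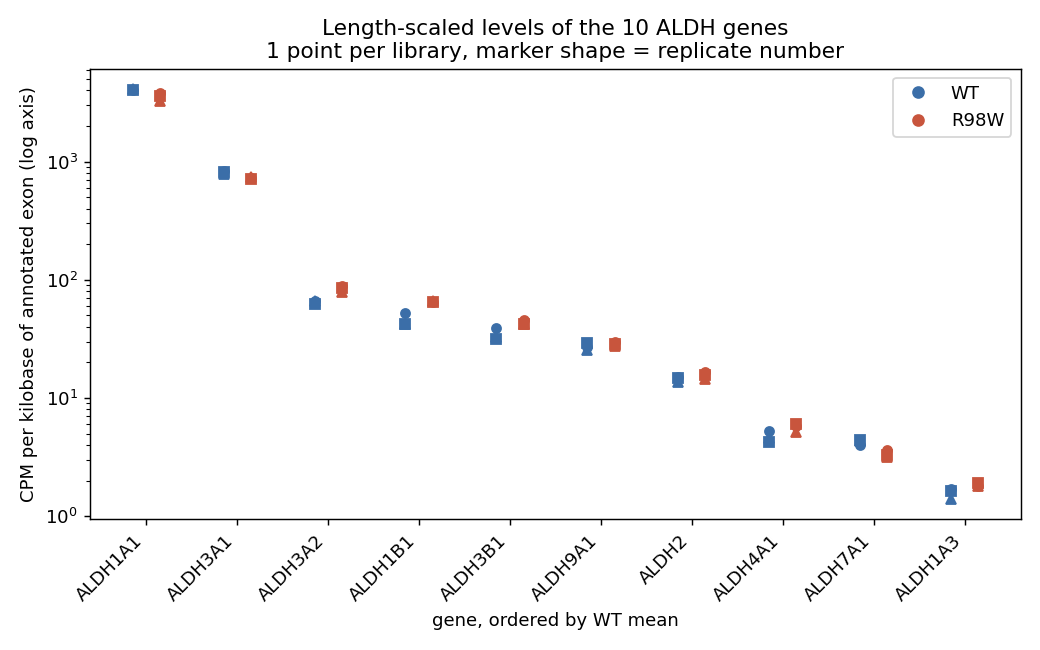
Length-scaled level of each ALDH gene in each library, as CPM per kilobase of annotated exon on a log axis, with genes ordered by their WT mean, blue points for WT and red for R98W, and the marker shape giving the replicate number. ALDH1A1 and ALDH3A1 lie far above the other 8 genes in both groups.

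Of the 10 genes, 4 were higher in R98W (ALDH1B1, ALDH3A2, ALDH3B1 and ALDH4A1), 3 were lower (ALDH1A1, ALDH3A1 and ALDH7A1) and 3 were not called (ALDH1A3, ALDH2 and ALDH9A1). Over all tested genes 34.8% were called, 16.2% higher and 18.5% lower, so a call by itself is common in this comparison. The 10 genes were chosen with earlier results of these data known, which limits how their share can be read. In 7 of the 10 genes WT and R98W ranges were apart, as they were in 45.6% of all tested genes. The median log2 ratio of the 10 was 0.16 and their median absolute log2 ratio was 0.25, beside -0.0047 and 0.26 over all tested genes. No member reached a 2-fold change, beside 0.748% of all tested genes called higher and 4.85% called lower at that size, and the extremes were 0.51 for ALDH1B1 and -0.34 for ALDH7A1. With 8 members over 64 CPM on average, the level matters to this reading. The medians and 2-fold shares over all tested genes took in 6476 genes under 1 CPM, where no member lay. They are thus not matched to the members in level. Among all tested genes over 64 CPM, the median log2 ratio was 0.13. Of these genes 40.4% were higher and 9.41% lower, and among the 8 members 3 were higher and 3 lower. Without WT replicate 1, 4 members were higher and 2 lower, the lost call being ALDH3A1, and the groups of ALDH4A1 no longer overlapped. In that fit 33.6% of 21443 tested genes were called, 3268 higher and 3944 lower. The shares of ranges apart and those over 64 CPM rest on all 6 libraries.

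**Figure D2:**
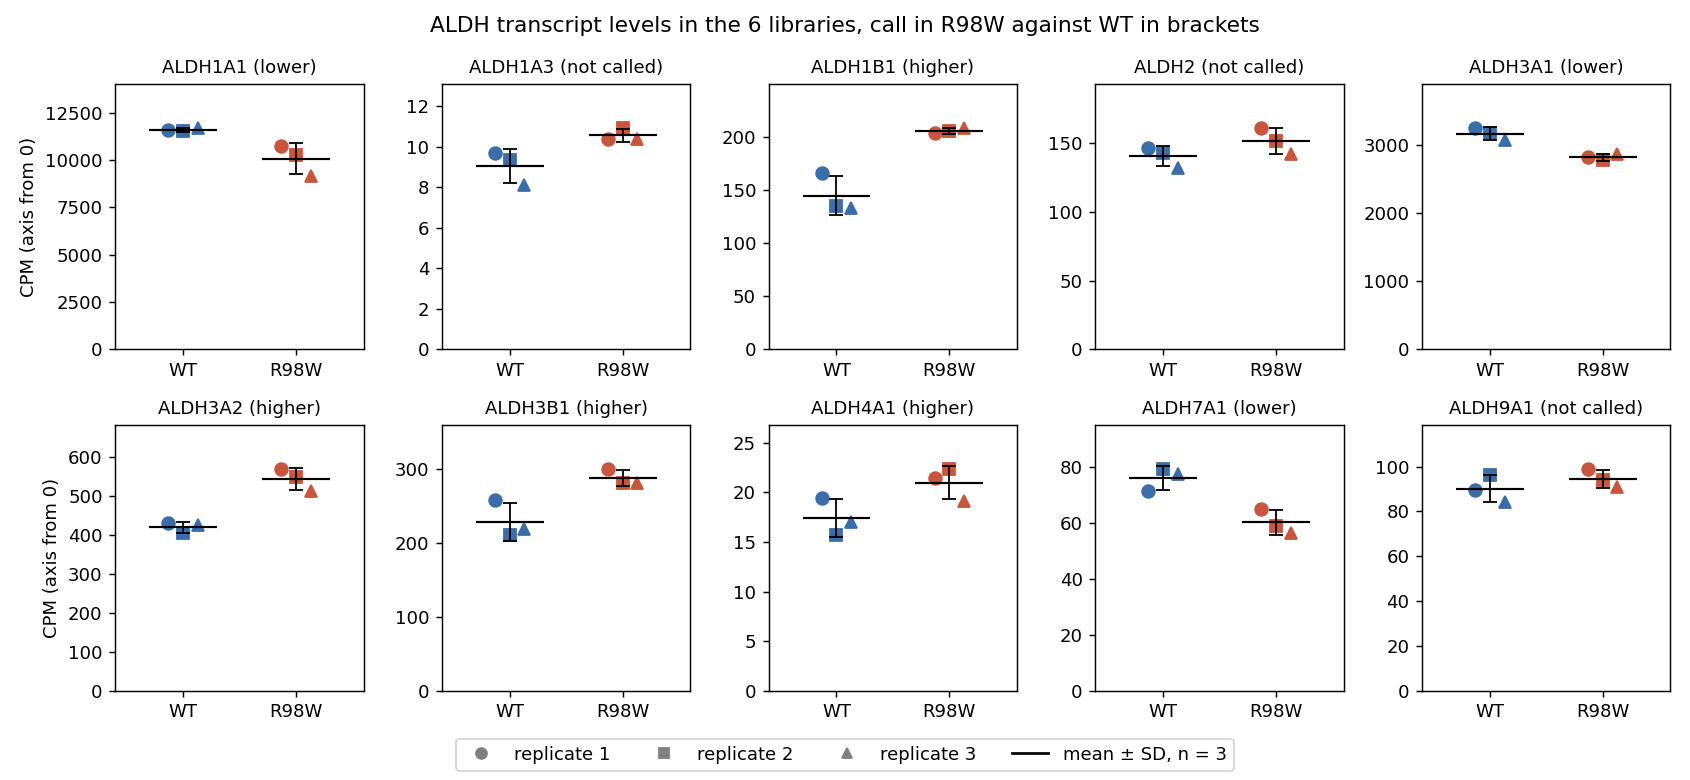
CPM of each ALDH gene in the 6 libraries on axes from 0, with marker shapes for replicates 1 to 3 and black lines for the group mean ± SD (n = 3). The panels show gaps between the groups for 7 genes and overlapping groups for ALDH2, ALDH4A1 and ALDH9A1.

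Among the retinal dehydrogenases, the abundant ALDH1A1 fell and the scarce ALDH1A3 was not called. ALDH1A1 (ENSG00000165092, chromosome 9, 72900662 to 73080442, hg38) stood at 11583, 11528 and 11705 CPM in WT replicates 1 to 3 and at 10774, 10258 and 9186 CPM in R98W replicates 1 to 3. All R98W libraries lay below all WT libraries, and R98W replicate 3 was the lowest. The mean went from 11605 ± 90.3 to 10073 ± 810 CPM (SD, n = 3), a log2 ratio of -0.20 (SE 0.062, adjusted p = 0.0154 by edgeR). The call ended without R98W replicate 3, at -0.14 and an edgeR adjusted p of 0.0822. The value was -0.32 with plain library totals and -0.47 after a loess correction for expression level (called the level correction below), both larger falls. The call also ended after an ordinary, not robust, loess correction for exon length, at -0.067 and an edgeR adjusted p of 0.441.

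ALDH1A3 (ENSG00000184254, chromosome 15, 100877714 to 100916626) was the least abundant member, at 9.72, 9.34 and 8.12 CPM in WT and 10.4, 10.9 and 10.4 CPM in R98W. The groups did not overlap, but the log2 ratio of 0.22 (SE 0.10) missed the threshold, at an edgeR adjusted p of 0.0999. After robust loess corrections for expression level and GC content it passed, at 0.32 and 0.29 with edgeR adjusted p of 0.0233 and 0.0247, and it passed after all 3 ordinary loess corrections. It was 0.11 (0.462) with plain library totals and 0.14 (0.389) without WT replicate 3. ALDH1A3 shares 1585 exonic bases with ALDH1A3-AS1 on the other strand, which held 302 to 426 counts a library, and reads of the pair cannot be told apart without strand.

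Of the mitochondrial acetaldehyde enzymes, ALDH1B1 rose and ALDH2 was not called. ALDH1B1 (ENSG00000137124, chromosome 9, 38392664 to 38398661) stood at 166, 134 and 133 CPM in WT replicates 1 to 3 and at 203, 205 and 208 CPM in R98W. WT replicate 1 was the WT library nearest to R98W, and the R98W libraries lay close together. The mean went from 144 ± 18.4 to 205 ± 2.5 CPM (SD, n = 3), a log2 ratio of 0.51 (SE 0.077, adjusted p = 4.59e-05 by edgeR), or 42.3% more. It was the largest change of the 10 and the only member past the threshold in a test against a fold of 1.2, at an edgeR adjusted p of 0.00643. Without WT replicate 1 the log2 ratio was 0.61 (edgeR adjusted p = 1.6e-06).

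ALDH2 (ENSG00000111275, chromosome 12, 111766887 to 111817529), the main acetaldehyde dehydrogenase, stood at 146, 143 and 132 CPM in WT and 161, 151 and 142 CPM in R98W. The groups overlapped, and the log2 ratio was 0.11 (SE 0.069, adjusted p = 0.255 by edgeR). The sign turned to -0.011 with plain library totals and to -0.022 after the level correction, while ordinary loess corrections for GC content and exon length gave calls at 0.20 and 0.18 (edgeR adjusted p = 0.0226 and 0.0334).

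The ALDH3 genes split, with ALDH3A2 and ALDH3B1 higher and ALDH3A1 lower in R98W. ALDH3A1 (ENSG00000108602, chromosome 17, 19737984 to 19748943), which oxidises aromatic and medium-chain aldehydes and is known from cornea and from tumours, stood at 3257, 3186 and 3078 CPM in WT and at 2823, 2780 and 2878 CPM in R98W. The groups did not overlap. The mean went from 3174 ± 90.3 to 2827 ± 48.7 CPM (SD, n = 3), a log2 ratio of -0.17 (SE 0.058, adjusted p = 0.0308 by edgeR), which was the smallest called change of the 10. The call ended without WT replicate 1 (-0.16, edgeR adjusted p = 0.0593), without R98W replicate 1 or 2 (0.0835 and 0.122), and after corrections for GC content (-0.073, 0.29) and exon length (-0.13, 0.0722), while the correction for expression level gave -0.41 (1.01e-05) and plain library totals -0.28 (0.000307). With ordinary loess the corrections for GC content and exon length gave 0.011 (edgeR adjusted p = 0.896), a turned sign, and -0.052 (0.507). An antisense gene that shares 98 exonic bases with ALDH3A1, ENSG00000264785, held 180 to 354 counts a library and was also lower, at -0.52 on the log2 scale (edgeR adjusted p = 0.0228). Its highest count, 354, was in WT replicate 1, and its call without that library was not examined. Reads of the shared bases cannot be told apart without strand.

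ALDH3A2 (ENSG00000072210, chromosome 17, 19648136 to 19677598) is the fatty aldehyde dehydrogenase of the endoplasmic reticulum and peroxisome, whose loss causes Sjögren-Larsson syndrome. It lies near ALDH3A1 on chromosome 17 and changed in the opposite direction. It stood at 431, 405 and 425 CPM in WT and at 569, 549.1 and 513 CPM in R98W, with a clear gap between the groups. The mean went from 420 ± 13.7 to 544 ± 28.3 CPM (SD, n = 3), a log2 ratio of 0.37 (SE 0.064, adjusted p = 0.000159 by edgeR). After the level correction the log2 ratio was 0.18 (edgeR adjusted p = 0.0256).

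ALDH3B1 (ENSG00000006534, chromosome 11, 68008578 to 68029282), which acts on aldehydes from lipid peroxidation, stood at 258, 210 and 219 CPM in WT and at 300, 282 and 282 CPM in R98W. WT replicate 1 again lay nearest to R98W. The log2 ratio was 0.33 (SE 0.075, adjusted p = 0.00182 by edgeR) and 0.41 without WT replicate 1. After the level correction the call ended, at 0.17 and an edgeR adjusted p of 0.0602, and plain library totals gave 0.21.

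The amino acid and amine enzymes went both ways. ALDH7A1 (ENSG00000164904, chromosome 5, 126531200 to 126595418), the antiquitin enzyme of lysine breakdown, stood at 71.3, 79.2 and 77.5 CPM in WT and at 65.1, 58.9 and 56.4 CPM in R98W, with no overlap. The mean went from 76.0 ± 4.2 to 60.2 ± 4.5 CPM (SD, n = 3), a log2 ratio of -0.34 (SE 0.072, adjusted p = 0.00111 by edgeR), and it was called lower in 21 of 22 alternatives, the exception being the test against a fold of 1.2 (edgeR adjusted p = 0.224). The processed pseudogene ALDH7A1P1 held 685 to 1041 counts a library against 5703 to 9111 for ALDH7A1, with -0.26 on the log2 scale and an edgeR adjusted p of 0.0758, and the split of reads between the pair is uncertain.

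ALDH4A1 (ENSG00000159423, chromosome 1, 18871430 to 18902781), which turns the semialdehyde of proline breakdown into glutamate, stood at 19.5, 15.7 and 17.0 CPM in WT and at 21.5, 22.3 and 19.1 CPM in R98W. R98W replicate 3 lay just under WT replicate 1, so the groups overlapped. The log2 ratio was 0.27 (SE 0.093, adjusted p = 0.0299 by edgeR). The call ended when WT replicate 2 or 3 or R98W replicate 1 or 2 was left out, with edgeR adjusted p of 0.139, 0.116, 0.0895 and 0.137, and with plain library totals, at 0.15 and 0.216. Without WT replicate 1 the log2 ratio was 0.35 (SE 0.094, adjusted p = 0.00777 by edgeR), and the 2 WT libraries left lay below all 3 of R98W.

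ALDH9A1 (ENSG00000143149, chromosome 1, 165662216 to 165698863), the aminobutyraldehyde enzyme that also serves carnitine synthesis, stood at 89.6, 96.2 and 84.2 CPM in WT and at 98.9, 94.2 and 90.9 CPM in R98W. The groups overlapped, with a log2 ratio of 0.072 (SE 0.069, adjusted p = 0.461 by edgeR). The sign turned to -0.045 with plain library totals and to -0.023 after the level correction, while ordinary loess corrections for GC content and exon length gave calls at 0.16 and 0.20 (edgeR adjusted p = 0.0463 and 0.0211).

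Scaling bears on changes of this size. Plain library totals in place of TMM moved the median log2 ratio of all tested genes from -0.0047 to -0.12, and the share of higher genes among all called genes from 46.7% to 24.2%. That share was 62.2% and 64.3% after ordinary loess corrections for GC content and exon length. The directions of the 7 called members were the same under TMM, DESeq2 size factors, upper-quartile scaling and plain totals. The plot of alternatives shows ALDH1A1 and ALDH3A1 at -0.47 and -0.41 after the correction for expression level.

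**Figure D3:**
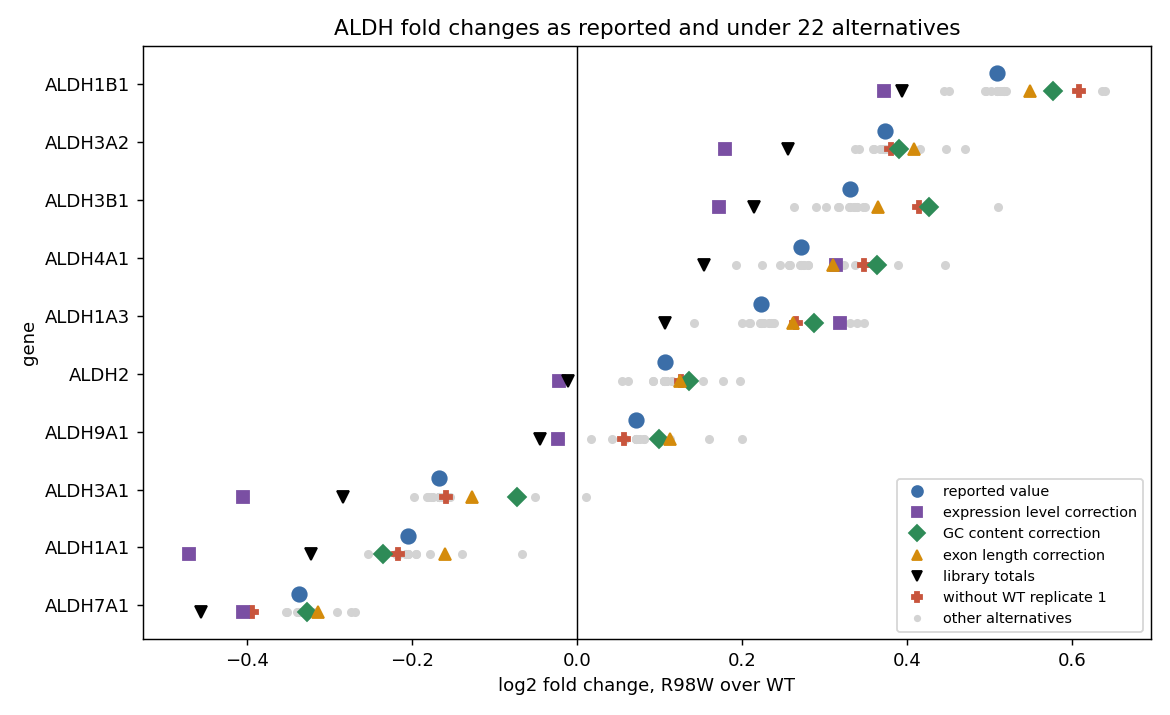
Log2 fold change (R98W over WT) of each ALDH gene as reported (blue circle) and under 22 alternatives, with the robust corrections for level, GC content and exon length, plain library totals and the fit without WT replicate 1 drawn as separate markers. ALDH2, ALDH9A1 and, in 1 alternative, ALDH3A1 cross 0, and the other 7 genes stay on the same side of 0.

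The other 9 genes of the ALDH superfamily ranged from -1.04 to 1.13 on the log2 scale. All 9 were tested, 2 were higher, 3 lower and 4 not called, with the same counts without WT replicate 1. Of all tested genes, 16.2% were higher and 18.5% lower. The median absolute log2 ratio was 0.31 for the 9 and 0.26 for all tested genes. The folate enzymes, which oxidise 10-formyltetrahydrofolate, rose. ALDH1L1 (cytosolic) stood at 2.89, 1.70 and 1.55 CPM in WT and at 5.01, 4.36 and 4.06 CPM in R98W, a log2 ratio of 1.13 (SE 0.19, adjusted p = 0.000149 by edgeR). The groups did not overlap in this gene, and WT replicate 1 was the highest WT library.

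ALDH1L2 (mitochondrial) stood at 17.7, 16.5 and 15.4 CPM in WT and at 25.3, 25.6 and 24.4 CPM in R98W, a log2 ratio of 0.60 (edgeR adjusted p = 1.36e-05). Of the mitochondrial semialdehyde dehydrogenases in this set, ALDH6A1 and ALDH5A1 fell. ALDH6A1, of valine and thymine breakdown, stood at 17.4, 18.5 and 18.8 CPM in WT and at 9.19, 10.2 and 7.30 CPM in R98W, a log2 ratio of -1.04 (SE 0.11, adjusted p = 6.47e-07 by edgeR). ALDH5A1, the succinic semialdehyde dehydrogenase of GABA breakdown, stood at 38.3, 36.7 and 37.6 CPM in WT and at 21.0, 21.3 and 17.5 CPM in R98W, a log2 ratio of -0.91 (edgeR adjusted p = 1.52e-07). In both genes every R98W library was far under every WT library.

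ALDH18A1, which makes the precursor of proline and ornithine from glutamate, went from 122 ± 5.5 to 98.04 ± 2.9 CPM (SD, n = 3), a log2 ratio of -0.31 (edgeR adjusted p = 0.000968). ALDH16A1 was not called, at 20.3 ± 4.3 and 19.6 ± 2.0 CPM. ALDH1A2, ALDH3B2 and ALDH8A1 lay under 1 CPM and were not called. ALDH1L1, ALDH1L2, ALDH5A1, ALDH6A1 and ALDH16A1 share exonic bases with a gene on the other strand.

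**Figure D4:**
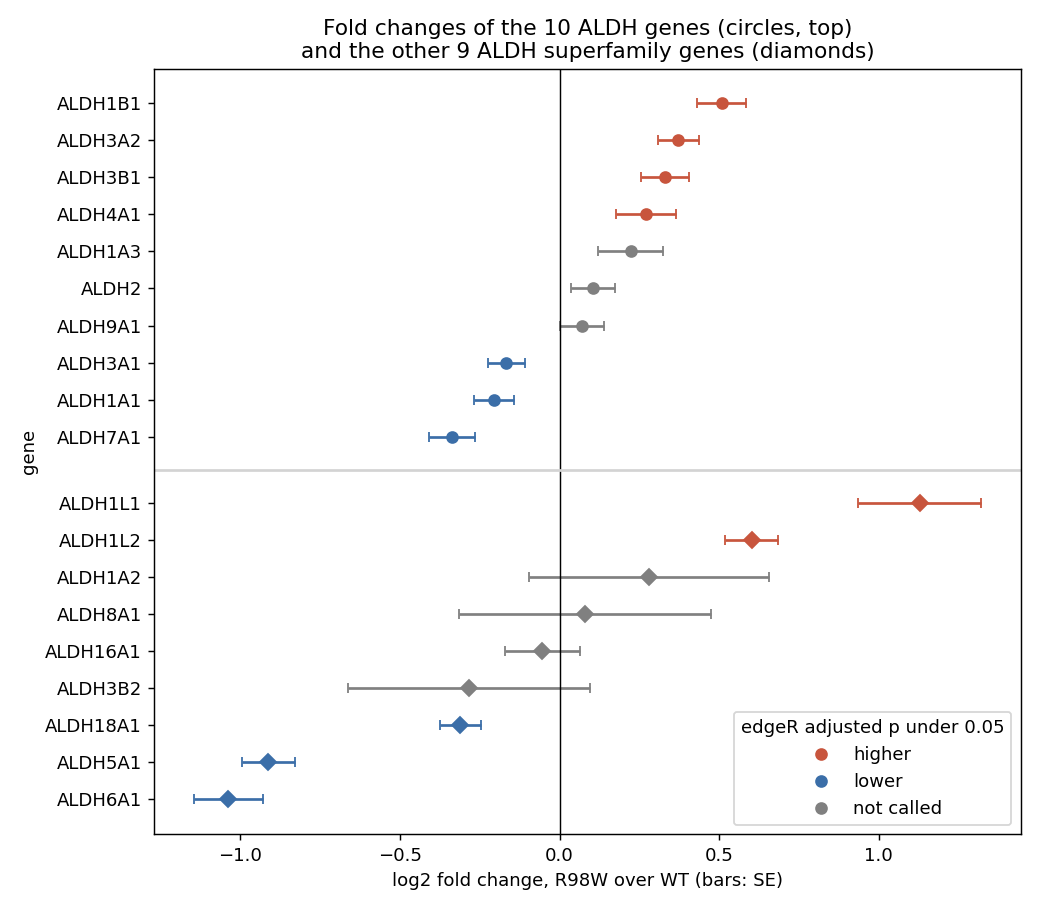
Log2 fold change (R98W over WT) with its SE for the 10 ALDH genes (circles) and the other 9 superfamily genes (diamonds), coloured by the edgeR call. The 10 lie between -0.34 and 0.51, while ALDH6A1 and ALDH1L1 lie at -1.04 and 1.13.

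Enzymes that work beside the ALDH genes also went both ways. For the list counts below, the shares over all tested genes were 16.2% higher and 18.5% lower. Of 7 alcohol dehydrogenase genes 4 were tested, with 1 higher and 1 lower. ADH5, the formaldehyde dehydrogenase that uses glutathione, rose from 139 ± 7.4 to 166 ± 4.1 CPM (SD, n = 3), and ADH4, named after its values were seen, fell from 0.74 ± 0.13 to 0.215 ± 0.0998 CPM. Of 16 aldehyde and ketone reductase and oxidase genes 15 were tested, with 5 higher, or 4 without WT replicate 1, and 1 lower. AKR1A1, the aldehyde reductase, rose by 0.64 on the log2 scale (edgeR adjusted p = 1.23e-06) and the carbonyl reductase CBR1 by 0.52 (4.03e-06). The aldehyde oxidase AOX1 went from 8.99 ± 1.41 to 4.94 ± 0.13 CPM, a log2 ratio of -0.86.

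Among 24 retinoid genes 22 were tested, with 5 higher and 5 lower, or 4 and 5 without WT replicate 1. The shares over all tested genes were 16.2% higher and 18.5% lower. The retinol dehydrogenase RDH10, which makes the retinal that ALDH1A1 uses, rose from 99.1 ± 10.4 to 146 ± 9.2 CPM (SD, n = 3), and RDH11 rose from 125 ± 3.0 to 172 ± 5.3 CPM. The retinol carrier RBP4 fell from 22.6 ± 0.54 to 13.3 ± 1.2 CPM. RDH10 and ALDH1A1, consecutive steps of retinoic acid synthesis, changed in opposite directions, with the limit on the ALDH1A1 call given above.

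Of 14 partner enzymes of proline, lysine and choline metabolism 11 were tested, with 4 higher and 5 lower, the same without WT replicate 1. Among all tested genes 34.8% were called. PRODH, the step before ALDH4A1 in proline breakdown, rose from 3.18 ± 0.43 to 5.11 ± 0.24 CPM (SD, n = 3), and the ornithine aminotransferase OAT rose by 0.35 on the log2 scale. GCDH, the glutaryl-CoA dehydrogenase further down the lysine route of ALDH7A1, had a log2 ratio of -0.56. PRODH and GCDH share exonic bases with genes on the other strand. Of 13 sphingolipid and fatty alcohol partner genes, all tested, 6 were higher, or 5 without WT replicate 1, and 0 lower. Over all tested genes 16.2% were higher and 18.5% lower. The higher genes of this list averaged from under 16 CPM to above 64 CPM. Those shares were 11.4% and 28.9% for tested genes of 1 to 16 CPM. They were 23.7% and 22.5% at 16 to 64 CPM, and 40.4% and 9.41% above 64 CPM. The fatty acid hydroxylase genes CYP4F12, CYP4F3 and CYP4F11 rose by 0.91, 0.49 and 0.40 on the log2 scale, and as close paralogs their split of reads is uncertain.

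The genes most like ALDH1B1 over the 6 libraries, by the Euclidean distance between log2 CPM values centred on each gene's mean, were EEIG1, PYGB, PITPNM1, NT5DC3 and FRK, at distances from 0.0892 to 0.101 and log2 ratios from 0.45 to 0.51. Those most like ALDH7A1 were TCIM, CBX1, PIK3C3, DCAF5 and DSTYK, at distances from 0.0362 to 0.0734 and log2 ratios from -0.36 to -0.34. The distance was taken among tested genes averaging 1 CPM or more. It describes a shared pattern across 6 libraries only and not a shared level. Genes picked this way have log2 ratios close to that of the member by construction.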

How the data were processed

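The authors deposited a table of raw, whole read counts by gene and library. Build hg38 and the tools HTSeq 0.11.3, HISAT2 2.1.0 and CASAVA 1.8 are listed, with no roles, per the submitters' processing notes. The annotation, strand setting and read filters were not given in the sources used here. All 58721 rows matched GENCODE release 29 by identifier. Groups and replicate numbers came from sample titles.

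Counts were tested with edgeR 4.0.16 (R 4.3.3): filterByExpr (minimum count 10, minimum total 15), TMM scaling, and the quasi-likelihood test of R98W against WT over all 6 libraries without covariates, with Benjamini-Hochberg adjustment over 20713 genes and a threshold of 0.05. SE was taken from the test statistic, and likeness used log2(CPM + 0.1). The common biological coefficient of variation was 10.0%. Alternatives included limma-voom (limma 3.58.1), DESeq2 1.42.0, other scalings and filters, a block for replicate number, fits that drop 1 library, and per-library robust loess corrections (span 0.3) for level, GC content of the longest transcript and exon length. Ordinary loess was run first. The robust form was adopted after its values were seen, because ordinary loess for GC content and exon length moved the calls over all genes toward higher, and both forms are reported. Plain library totals and list counts without WT replicate 1 were also added after seeing the data. The pipeline was tested on simulated data. The members and the 93 entries of the gene lists were chosen with earlier results of these data known. Named genes were all members, all superfamily genes, the 3 called genes of smallest p with a mean of at least 1 CPM in each other list, and the 5 nearest genes of ALDH1B1 and ALDH7A1. ADH4, under 1 CPM, falls outside this rule and was named after its values were seen.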

Additional observations from a re-analysis of the deposited data

How the results depend on the processing

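Of 22 alternatives, ALDH1B1 kept its call in all, and ALDH3A2 and ALDH7A1 in all but the test against a fold of 1.2. Leaving out 1 library at a time gave 3 to 4 higher and 2 to 3 lower members, 2340 to 3268 higher and 3060 to 3944 lower genes, and log2 fold changes from -0.25 to -0.14 for ALDH1A1, -0.20 to -0.15 for ALDH3A1 and 0.19 to 0.35 for ALDH4A1. Depth was at least 771 counts for every member in every library.

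At a threshold of 0.01, 1 member was lower, 2143 genes were higher, and the calls of ALDH1A1 (-0.20), ALDH3A1 (-0.17) and ALDH4A1 (0.27) ended, by construction. Against a fold of 1.2, 1 member was higher and 0 lower, with 884 genes higher and 1982 lower, and calls ended for ALDH1A1 (-0.20), ALDH3A1 (-0.17), ALDH3A2 (0.37), ALDH3B1 (0.33), ALDH4A1 (0.27) and ALDH7A1 (-0.34). With plain library totals 1708 genes were higher, ALDH4A1 had 0.15, and ALDH2 (-0.011) and ALDH9A1 (-0.045) turned sign. After the correction for expression level ALDH3B1 had 0.17, ALDH1A3 passed at 0.32, and ALDH2 (-0.022) and ALDH9A1 (-0.023) turned sign. After that for GC content ALDH3A1 had -0.073 and ALDH1A3 passed at 0.29, and after that for exon length ALDH3A1 had -0.13. Ordinary loess gave, for level, ALDH3B1 0.17, ALDH1A3 0.34, ALDH2 -0.020 and ALDH9A1 -0.021, the last 2 turned in sign. For GC content it gave 7 higher members, 5109 higher genes, ALDH1A3 0.35, ALDH2 0.20, ALDH9A1 0.16 and ALDH3A1 0.011, turned in sign. For exon length it gave 7 higher and 1 lower members, 5219 higher genes, ALDH1A3 0.33, ALDH2 0.18, ALDH9A1 0.20, ALDH1A1 -0.067 and ALDH3A1 -0.052. Without a filter ALDH3A1 missed the threshold at -0.17, where 37044 genes were tested. Apart from thresholds, folds and filters, the cause was not tested.

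The replicate number as a block gave 4 higher and 2 lower members, with 3205 genes higher and 3678 lower, and ended the call of ALDH3A1 (-0.17, edgeR adjusted p = 0.054) and no other member's. The samples share only a number. Deviations of same-numbered libraries correlated at -0.036, -0.089 and -0.087 over genes of at least 1 CPM, and no library correlated best with its own number.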
